A study of Mus musculus with 3 samples.

Results

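The 10 genes described here, *Hspa1a*, *Hspa1b*, *Dnajb1*, *Dnaja1*, *Hsph1*, *Hspb1*, *Hspa8*, *Hspe1*, *Hspd1* and *Hsp90aa1*, encode heat shock chaperones and were followed cell by cell in mouse splenic B cells. They are 10 of the 32285 genes counted in 3 single-cell libraries, and were found by symbol. They were chosen because earlier results of these same data showed heat shock genes higher in both *BCL2* libraries, so that the differences in level between libraries given for them are descriptions and carry no test. In 3′RR-*BCL2* mice, a human *BCL2* cassette with its P1/P2 promoter was integrated at random under a core form of the 3′ regulatory region of the IgH locus. In Igκ-*BCL2* mice, the same cassette was knocked in at the Igκ locus in place of the Jκ region. The third library came from WT mice. All mice were of a mixed B6/129 background and were injected once with sheep red blood cells, an antigen that starts germinal centers (GCs), 10 days before the spleen was taken. The study worked with hemizygous mice of both models and, in some experiments, with homozygous Igκ-*BCL2* mice. The zygosity, number and age of the mice behind each library are not given in the sources used here. There was 1 library per genotype, so the spread between mice was not measured.

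Heat shock chaperones hold unfolded or newly made proteins and help them fold. HSP70 proteins bind and release exposed stretches of a client in cycles of ATP hydrolysis, HSP40 (DNAJ) proteins deliver the client and start that hydrolysis, HSP110 exchanges the nucleotide, HSP90 finishes many signaling proteins, and HSP60 with HSP10 forms a folding chamber in mitochondria. Heat shock factor 1 (HSF1) drives the inducible members when unfolded proteins accumulate, by binding heat shock elements, which are inverted repeats of the unit GAA.

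Each RNA molecule captured from a cell was counted once by its unique molecular identifier (UMI). After the cell filter, 6561 B-lineage cells of 3′RR-*BCL2*, 6243 of Igκ-*BCL2* and 9932 of WT were used, with a median of 5291, 4838 and 5031 UMIs. The labels name whole tissue cells for both *BCL2* libraries and sorted B cells for WT, while the methods describe magnetic negative selection for all 3. The B-lineage marker *Cd79a* was found in 99.6%, 99.7% and 99.8% of cells, and the T cell markers *Cd3d*, *Cd3e* and *Cd3g* together made up 1.8, 1.4 and 1.0 UMIs per 1000000 (UPM), the unit of level used throughout. *Xist*, which coats the silent X chromosome of females, was at 1719 UPM in 3′RR-*BCL2*, 0.17 in Igκ-*BCL2* and 0.16 in WT, so that sex and genotype cannot be told apart for 3′RR-*BCL2*. Between 15 and 24 cell barcodes were shared by any pair of libraries. Intervals are exact 95% intervals (Poisson for UMI sums and their ratios, Clopper-Pearson for shares of cells) and cover counting error only.

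Promoter windows, from 250 bases before to 50 after each start site, were read from RefSeq (GRCm38.p6) for 8 of the 10 members. The element searched was a pair of inverted units, GAANNTTC or TTCNNGAA, and a run of 3 units, GAANNTTCNNGAA or TTCNNGAANNTTC, in windows where both spellings together cover both strands and matches may overlap. A pair of units was found for 7 of the 8 members and for 17.0% of all 27025 genes with such a window, and a run of 3 units for 3 members (*Hsph1*, *Hspe1* and *Hspd1*) and for 0.662% of those genes. Neither window of *Dnajb1* held the pair. The sites are shown because the near-identical *Hspa1a* and *Hspa1b*, which differed most between libraries, share theirs base for base, and because *Hspe1* and *Hspd1* are transcribed away from each other across 1 common stretch. The stretch of *Hspa1a* and *Hspa1b* lies upstream of both start sites, that of *Hspe1* lies upstream of its own start and inside the first exon of the longer *Hspd1* transcripts in the annotation, and the 3 units of *Hsph1* lie in its first exon. Capitals mark the matched element, lower case the bases around it, and each line reads 5′ to 3′ on the strand of its gene. A match says only that these letters are there.
Hspa1a (chr17:34972247-34972266, minus strand): ctgctgGAAGATTCctggcc
Hspa1b (chr17:34959329-34959348, minus strand): ctgctgGAAGATTCctggcc
Dnaja1 (chr4:40722338-40722357, plus strand): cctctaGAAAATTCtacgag
Hsph1, 3 units (chr5:149636287-149636306, minus strand): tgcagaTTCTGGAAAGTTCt
Hspb1 (chr5:135887796-135887835, plus strand): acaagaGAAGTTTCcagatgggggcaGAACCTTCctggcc
Hspe1 (chr1:55088053-55088082, plus strand): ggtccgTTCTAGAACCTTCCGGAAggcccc
Hspd1 (chr1:55088053-55088082, minus strand): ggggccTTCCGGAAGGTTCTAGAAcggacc

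*Hspa1a* (chr17:34969190-34972156, minus strand, GRCm38) and *Hspa1b* (chr17:34956436-34959238, minus strand) encode the inducible HSP70 and lie 9951 bases apart. They were the members that differed most between libraries. *Hspa1a* overlaps *Gm20481* in the annotation, and whether reads were counted by strand is not given in the sources used here. *Hspa1a* made up 394 UPM in 3′RR-*BCL2* cells and 890.5 in Igκ-*BCL2* cells, against 6.16 in WT cells, a ratio to WT of 64.0 (57.6 to 71.3) and 145 (130 to 161). *Hspa1b* made up 711.5 UPM in 3′RR-*BCL2* cells and 2194 in Igκ-*BCL2* cells, against 18.3 in WT cells, a ratio of 38.9 (36.6 to 41.4) and 120 (113 to 128). Both were also higher in Igκ-*BCL2* than in 3′RR-*BCL2*, by 2.26 (2.22 to 2.31) for *Hspa1a* and 3.08 (3.04 to 3.13) for *Hspa1b*. By their ratio to WT, *Hspa1a* stood at rank 6 of 13043 genes measured in 3′RR-*BCL2* and at rank 1 of 13054 in Igκ-*BCL2*, and *Hspa1b* at ranks 11 and 3. The balance within the pair differed as well, since 1.81 UMIs of *Hspa1b* (1.77 to 1.84) were counted per UMI of *Hspa1a* in 3′RR-*BCL2* cells, 2.46 (2.43 to 2.5) in Igκ-*BCL2* cells and 2.97 (2.63 to 3.36) in WT cells. The coding parts of the pair are near-identical, with 52.7% of the 75-base windows of the *Hspa1a* transcript found in *Hspa1b*, but their last 500 bases, which a 3′ library reads, share no such window.

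The HSP40 cochaperones *Dnajb1* (chr8:83608193-83612653, plus strand) and *Dnaja1* (chr4:40722150-40737149, plus strand), which bring clients to HSP70, followed at a smaller size. *Dnaja1* overlaps *Smu1*, *Gm6297* and *Mir207* in the annotation. *Dnajb1* made up 285 UPM in 3′RR-*BCL2* cells and 394 in Igκ-*BCL2* cells, against 75.4 in WT cells, a ratio of 3.78 (3.65 to 3.92) and 5.23 (5.05 to 5.41). *Dnaja1* made up 436 in 3′RR-*BCL2* cells and 530 in Igκ-*BCL2* cells, against 201 in WT cells, a ratio of 2.17 (2.12 to 2.22) and 2.64 (2.57 to 2.70). *Hsph1* (chr5:149614287-149636376, minus strand), the HSP110 exchange factor, made up 224 UPM in 3′RR-*BCL2* cells and 328 in Igκ-*BCL2* cells, against 43.9 in WT cells, a ratio of 5.11 (4.89 to 5.34) and 7.48 (7.17 to 7.81). For these 3 partners of HSP70 the order of the libraries was the same as for *Hspa1a* and *Hspa1b*, with Igκ-*BCL2* above 3′RR-*BCL2* by 1.21 to 1.46. *Hspb1* (chr5:135887919-135889563, plus strand), the small heat shock protein HSP27 that holds clients without ATP, was rare, with 324 UMIs in 3′RR-*BCL2* cells and 398 in Igκ-*BCL2* cells, against 33 in WT cells. Its ratio to WT was 14.1 (9.83 to 20.8) and 20.2 (14.2 to 29.8).

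*Hspa8*, *Hsp90aa1*, *Hspe1* and *Hspd1* had the lowest ratios to WT. *Hspa8* (chr9:40800984-40810087, plus strand), the constitutive HSC70, made up 1057 UPM in 3′RR-*BCL2* cells and 1028 in Igκ-*BCL2* cells, against 547 in WT cells, a ratio of 1.93 (1.90 to 1.96) and 1.88 (1.85 to 1.91). It was the only member lower in Igκ-*BCL2* than in 3′RR-*BCL2*, with a ratio of 0.972 (0.959 to 0.986). Of the 75-base windows in its last 500 bases, 80.8% also occur in 8 other annotated genes. For *Hspe1* 39.0% of these windows occur in 2 other genes and for *Hspb1* 10.3% in 1, while the other 7 members share none. *Hsp90aa1* (chr12:110690605-110702728, minus strand), the inducible form of cytosolic HSP90, made up 834 in 3′RR-*BCL2* cells and 883.5 in Igκ-*BCL2* cells, against 443 in WT cells, a ratio of 1.88 (1.85 to 1.91) and 1.995 (1.96 to 2.03). The mitochondrial pair of *Hspe1* (HSP10, chr1:55088132-55091307, plus strand) and *Hspd1* (HSP60, chr1:55077835-55088243, minus strand), whose annotated 5′ ends overlap by 112 bases, were the lowest of these. *Hspe1* made up 414 in 3′RR-*BCL2* cells and 458 in Igκ-*BCL2* cells, against 287 in WT cells, a ratio of 1.44 (1.41 to 1.47) and 1.60 (1.56 to 1.63). *Hspd1* made up 209 in 3′RR-*BCL2* cells and 251 in Igκ-*BCL2* cells, against 141 in WT cells, a ratio of 1.48 (1.44 to 1.53) and 1.78 (1.72 to 1.83). The pair stayed in nearly the same balance, with 0.505, 0.548 and 0.492 UMIs of *Hspd1* per UMI of *Hspe1* in 3′RR-*BCL2*, Igκ-*BCL2* and WT.

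**Figure D1:**
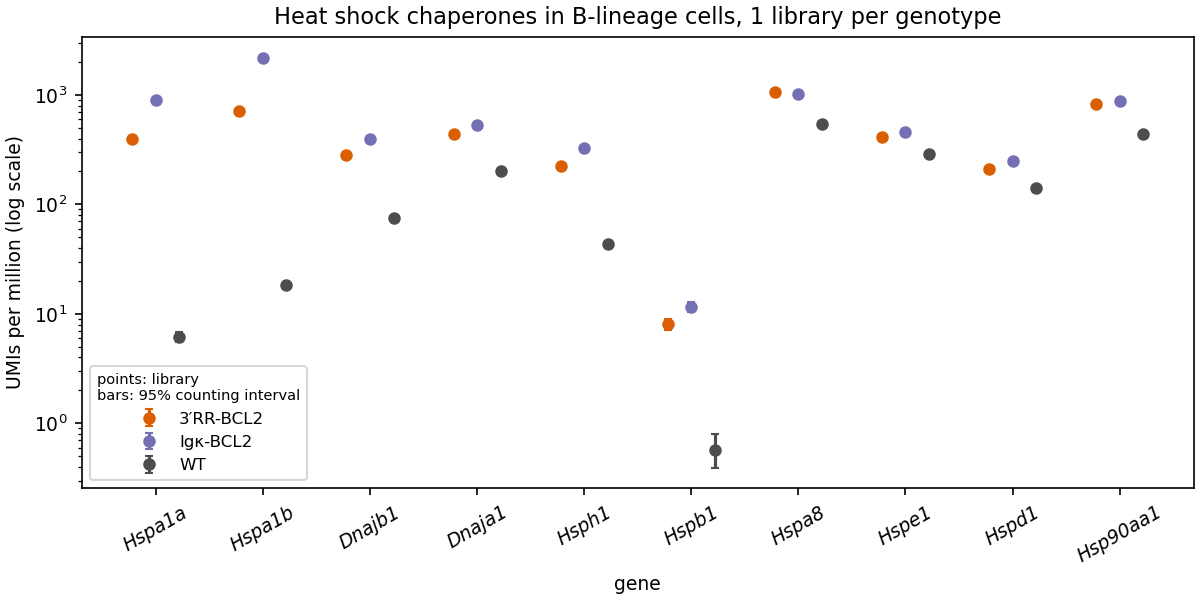
Level of each of the 10 members in UPM (log scale) in B-lineage cells of 3′RR-*BCL2*, Igκ-*BCL2* and WT, 1 point per library with its 95% counting interval. The points of *Hspa1a* lie between 6.16 in WT and 890.5 in Igκ-*BCL2*, while those of *Hspe1* lie between 287 and 458.

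Counted together, 6 of the 10 members were at least 2-fold higher in 3′RR-*BCL2* than in WT, where 3.45% of all genes measured were, and 6 of 10 in Igκ-*BCL2*, where 4.16% were. In both cases the member just inside that limit was *Dnaja1* (2.17 and 2.64) and the one just outside was *Hspa8* (1.93) or *Hsp90aa1* (1.995). All 10 lay above WT in 3′RR-*BCL2*, as 39.1% of all genes did, and all 10 in Igκ-*BCL2*, as 53.4% did. Since the members were chosen from these contrasts, nothing is read from these counts. Their median log2 ratio was 1.52 in 3′RR-*BCL2* cells and 1.89 in Igκ-*BCL2* cells, beside −0.06 and 0.02 over all genes. Igκ-*BCL2* was at least 2-fold above 3′RR-*BCL2* for 2 of 10 members, *Hspa1a* and *Hspa1b*, with 2.99% of all genes doing so, and for 1 when the pair was summed as 1 gene. The members together took 0.457% of all UMIs in 3′RR-*BCL2*, 0.697% in Igκ-*BCL2* and 0.176% in WT, and *Hspa1a* with *Hspa1b* took 24.2%, 44.3% and 1.39% of that sum. Without this pair, the other 8 members summed to 3468 UPM in 3′RR-*BCL2* cells and 3884 in Igκ-*BCL2* cells, against 1739 in WT cells, a ratio of 1.99 (1.98 to 2.01) and 2.23 (2.21 to 2.25).

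To see whether a few cells or most cells carried the difference, each cell was thinned to 2000 UMIs, which left out 165, 135 and 178 shallower cells of 3′RR-*BCL2*, Igκ-*BCL2* and WT. *Hspa1a* or *Hspa1b* was then found in 56.1% (54.9 to 57.4) of 3′RR-*BCL2* cells, 78.6% (77.6 to 79.6) of Igκ-*BCL2* cells and 3.30% (2.96 to 3.68) of WT cells. Without thinning these shares were 68.9%, 87.8% and 6.85%. The median cell held 1 such UMI in 3′RR-*BCL2*, 4 in Igκ-*BCL2* and 0 in WT, and the highest cell held 50, 97 and 19. Cells with 10 or more made up 6.50% in 3′RR-*BCL2*, 26.1% in Igκ-*BCL2* and 0.0308% in WT.

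The pair was spread unevenly among cells. The top 10% of 3′RR-*BCL2* cells held 49.6% of its UMIs, and the top 10% of Igκ-*BCL2* cells 39.1%. If every cell had the same expected count, the mean of each library would give a UMI in 91.9% of 3′RR-*BCL2* cells and 99.9% of Igκ-*BCL2* cells, well above the shares found. The variance over the mean, which is 1 for pure counting noise, was 6.82 for the summed pair in 3′RR-*BCL2*, 10.9 in Igκ-*BCL2* and 3.43 in WT, where the median gene had 1.07, 1.10 and 1.07. *Hspa1b* ranked 8, 9 and 20 by this measure among the 8880, 8953 and 8884 genes found in at least 1% of cells of 3′RR-*BCL2*, Igκ-*BCL2* and WT. Among the other members, those apart from *Hspb1* ranged between 1.30 and 1.69 in 3′RR-*BCL2* cells, between 1.41 and 1.99 in Igκ-*BCL2* and between 1.12 and 1.30 in WT. These values lie above that of the median gene, though *Dnajb1* ranked only 1803 of 8884 in WT. Genes of like level were not compared.

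**Figure D2:**
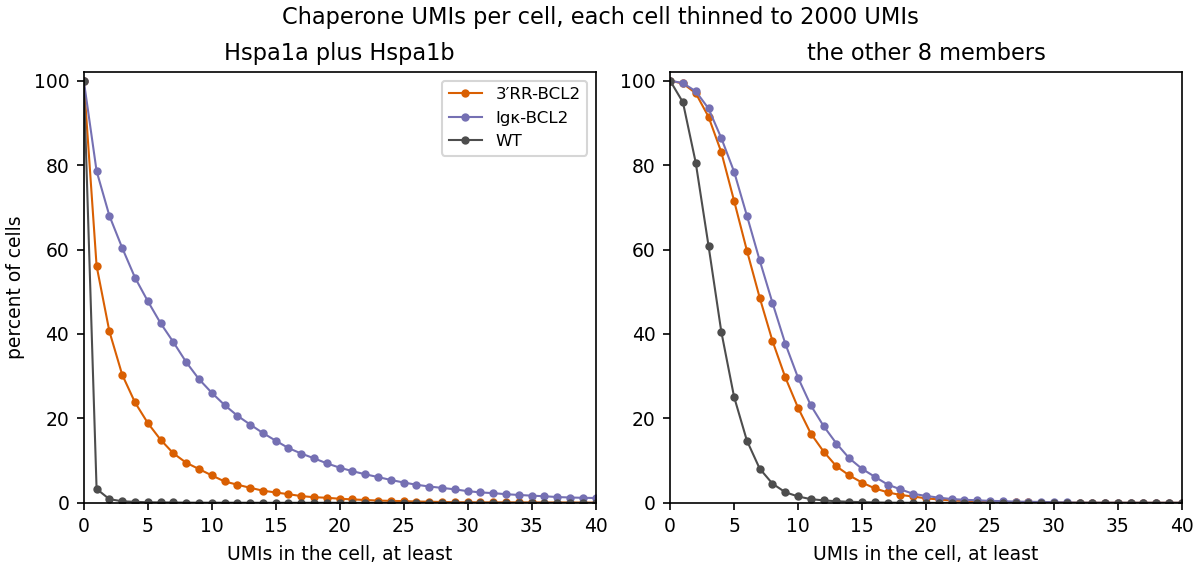
Percent of cells (vertical axis) with at least the number of UMIs on the horizontal axis, for *Hspa1a* plus *Hspa1b* (left) and for the other 8 members summed (right), each cell thinned to 2000 UMIs. On the left the curves of 3′RR-*BCL2* and Igκ-*BCL2* pass 56.1% and 78.6% at 1 UMI, where WT is at 3.30%, while on the right all 3 libraries start near 100% and lie closer together.

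The partners of HSP70 were also found in more cells. *Hsph1* had a UMI in 31.6% of thinned 3′RR-*BCL2* cells and 40.5% of Igκ-*BCL2* cells, against 7.75% of WT cells. For *Dnajb1* these shares were 38.6% and 46.7%, against 13.7% in WT, and for *Dnaja1* 53.2% and 58.3%, against 32.3% in WT. *Hspa8* was common in every library, in 82.9% of 3′RR-*BCL2* cells and 80.8% of Igκ-*BCL2* cells, against 60.8% of WT cells. *Hspb1* was found in only 1.17% and 1.20% of cells, against 0.0410% in WT. The share that free RNA gives was not measured within the *BCL2* libraries, so these are shares of cells with a UMI and not of cells that express the gene. The median cell held UMIs of 4 of the 10 members in 3′RR-*BCL2*, 5 in Igκ-*BCL2* and 2 in WT. At least 5 members were found in 47.0% of 3′RR-*BCL2* cells, 65.1% of Igκ-*BCL2* cells and 4.06% of WT cells, and none in 0.438%, 0.278% and 5.01%.

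**Figure D3:**
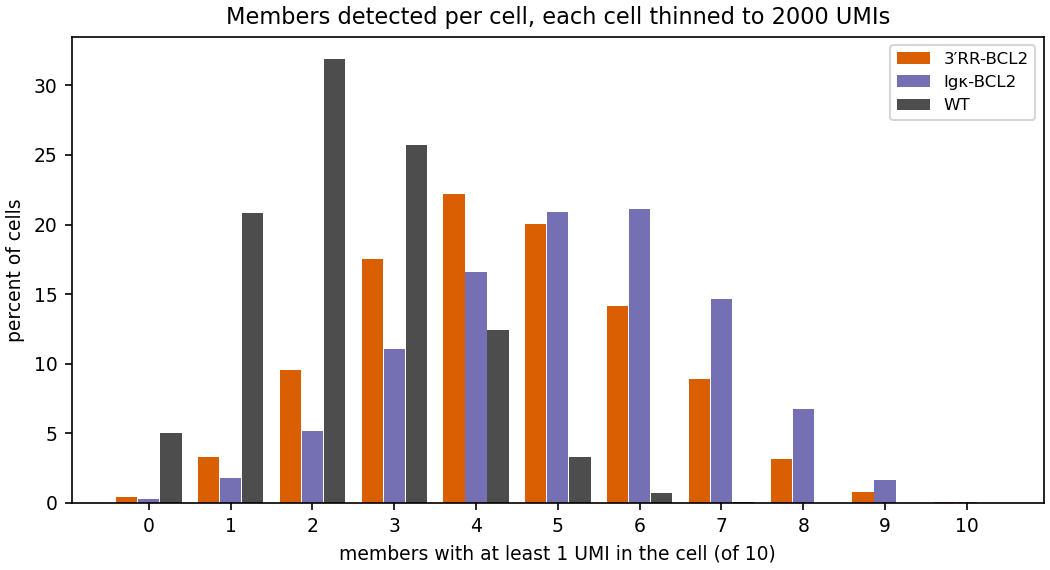
Percent of cells (bars) by the number of the 10 members with at least 1 UMI, each cell thinned to 2000 UMIs. The median is 4 members in 3′RR-*BCL2*, 5 in Igκ-*BCL2* and 2 in WT.

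Within each *BCL2* library, cells with more *Hspa1a* and *Hspa1b* UMIs also held more of most other members. In 3′RR-*BCL2*, the other 8 members summed to 2951 UPM in the 2805 cells with none of the pair, 3602 in the 2381 cells with 1 to 4, 4379 in the 794 cells with 5 to 9 and 5180 in the 416 cells with 10 or more. In Igκ-*BCL2* the same classes held 3034 (1307 cells), 3651 (1882 cells), 4196 (1326 cells) and 4892 (1593 cells). In WT, 309 cells with 1 to 4 UMIs held 1927, against 1670 in the 9432 cells with none. The order from class to class was the same in both *BCL2* libraries.

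The step from 0 to 10 or more was largest for *Dnajb1* and *Hsph1* in both libraries. Set against cells with none, cells with 10 or more held 2.53-fold more *Dnajb1* in the 3′RR-*BCL2* library and 2.42-fold more in the Igκ-*BCL2* library, and 2.62-fold and 2.08-fold more *Hsph1*. *Dnaja1* was 1.94-fold and 1.69-fold higher, *Hsp90aa1* 1.87-fold and 1.53-fold, *Hspa8* 1.5-fold and 1.42-fold, *Hspd1* 1.45-fold and 1.57-fold, and *Hspe1* 1.32-fold and 1.31-fold. *Hspb1* was too rare for a direction in 3′RR-*BCL2*, with a ratio of 0.578 (0.114 to 1.83), and had 2.05 (1.12 to 3.92) in Igκ-*BCL2*. Of genes outside the 10, *Actb*, which encodes actin, had 0.927 in 3′RR-*BCL2* cells and 0.978 in Igκ-*BCL2* cells, *Hspa5*, the HSP70 of the endoplasmic reticulum, 0.996 and 0.947, and the immediate early gene *Jun* 2.27 and 2.31. *Fos*, another immediate early gene, differed less, with 1034 UPM at 0 and 1132 at 10 or more in 3′RR-*BCL2*, and 895 and 1026 in Igκ-*BCL2*. The classes also differed in depth and in mitochondrial RNA. From 0 to 10 or more, the median cell had 5669, 5338, 4976 and 4594 UMIs before thinning in 3′RR-*BCL2* and 5696, 5043, 4782 and 4382 in Igκ-*BCL2*, with mitochondrial shares of 2.39%, 2.13%, 1.88% and 1.73% and of 2.60%, 2.47%, 2.24% and 2.11%, and the part of these in the result was not tested.

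**Figure D4:**
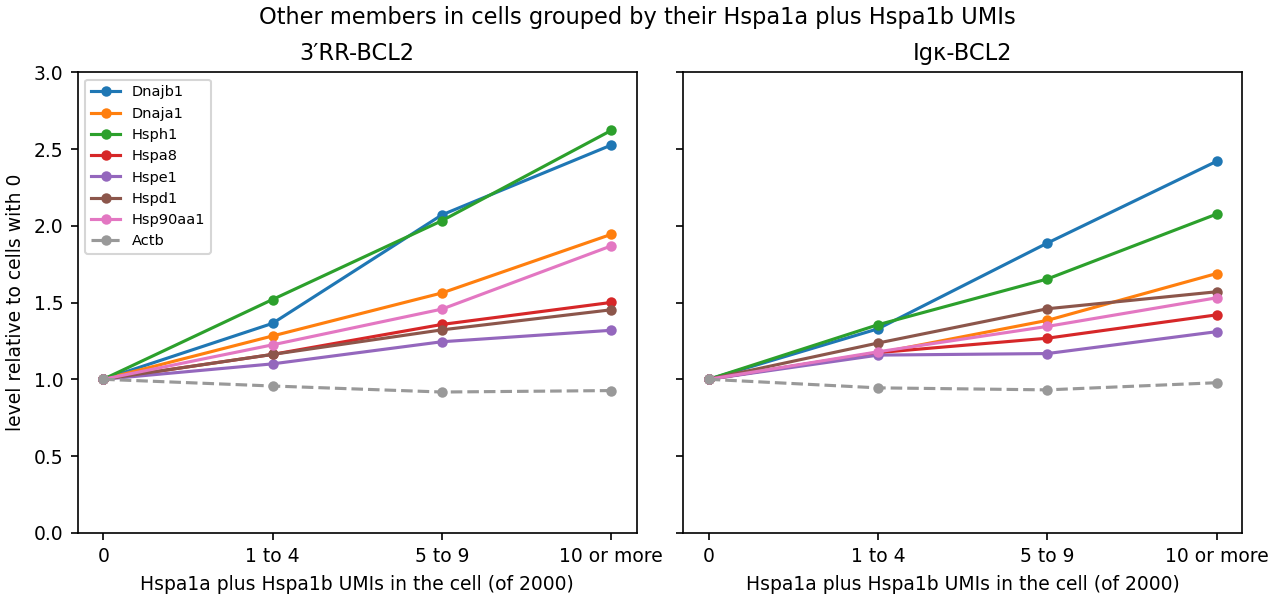
Level of 7 other members and of *Actb* in cells grouped by their *Hspa1a* plus *Hspa1b* UMIs, each relative to its level in cells with none, for 3′RR-*BCL2* (left) and Igκ-*BCL2* (right). At 10 or more UMIs, *Dnajb1* reaches 2.53 in 3′RR-*BCL2* cells and 2.42 in Igκ-*BCL2* cells, while *Actb* stays at 0.927 and 0.978.

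Cells of the *BCL2* libraries in which no *Hspa1a* or *Hspa1b* UMI was found after thinning still held more of the other members than the same class of WT cells. *Hsph1* was 3.88-fold higher in such cells of 3′RR-*BCL2* and 5.27-fold higher in those of Igκ-*BCL2*, *Dnajb1* 2.89-fold and 3.31-fold, *Dnaja1* 1.79-fold and 2.03-fold, *Hspa8* 1.80-fold and 1.64-fold, *Hsp90aa1* 1.64-fold and 1.67-fold, *Hspe1* 1.41-fold and 1.43-fold, and *Hspd1* 1.37-fold and 1.45-fold. The rare *Hspb1*, with 8 UMIs in this class of WT, was 14.7-fold (6.71 to 36.7) and 14.4-fold (5.83 to 39.0) higher. This class held 43.9% of 3′RR-*BCL2* cells, 21.4% of Igκ-*BCL2* cells and 96.7% of WT cells, so unlike parts of the libraries are compared. A cell with none of the pair among 2000 UMIs may hold some at its full depth.

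Pair by pair, members were found in the same cells slightly more often than the product of their shares. Over the 36 pairs without *Hspb1*, the median of the observed share over that product was 1.06 in 3′RR-*BCL2*, 1.03 in Igκ-*BCL2* and 1.06 in WT, and it was above 1 for 36, 36 and 33 pairs. *Hspa1a* with *Hspa1b* stood above the others, with both found in 1396 cells of 3′RR-*BCL2* (1.49 times the product), 2678 of Igκ-*BCL2* (1.21) and 27 of WT (11.2). The larger share of a pair sets a ceiling on this value. That share, of *Hspa1b*, was 46.2%, 71.8% and 2.6%, so the values cannot be compared between libraries. Over cells, Spearman's rho of this pair was 0.39 in 3′RR-*BCL2* (n = 6396), 0.49 in Igκ-*BCL2* (n = 6108) and 0.17 in WT (n = 9754), and the median rho over the 36 pairs was 0.085, 0.083 and 0.021. Cells of a library share its preparation, and in counts this sparse most of these values are too low to be a finding. The summed pair had a rho of 0.31, 0.32 and 0.044 with the sum of the other 8 members, and of −0.13, −0.21 and −0.04 with the UMIs of the cell. The genes whose counts most resembled the pair over cells, by the lowest Pearson's r of the 3 libraries among 8585 genes, were *Hsp90aa1*, *Ier2*, *Jund*, *Hsph1* and *Fosb*. Their r was 0.19, 0.12, 0.22, 0.19 and 0.12 in 3′RR-*BCL2* and 0.16, 0.11, 0.23, 0.16 and 0.13 in Igκ-*BCL2*, and at most 0.046 in WT, whose low values set this ranking. By the lower r of both *BCL2* libraries alone, a ranking chosen after the values were seen, the leading genes were *Jund*, *Jun*, *Klf2*, *Dnajb1* and *Malat1*, with r between 0.17 and 0.23.

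B cell stages were then defined by marker genes among which no chaperone stands. After thinning, a cell was called GC-like with UMIs of at least 2 of 9 markers such as *Mef2b*, *Rgs13* and *S1pr2*, interferon-like with 2 of 10 such as *Ifit3* and *Isg15*, activated-like with 4 of 10 such as *Myc* and *Srm*, marginal zone-like with 3 of 10 such as *Fcrl5* and *Cr2*, and transitional-like with 2 of 10 such as *Cd93* and *Vpreb3*. There were 575 GC-like cells in 3′RR-*BCL2*, 314 in Igκ-*BCL2* and 54 in WT, and each other stage held between 92 and 550. The remaining cells, 4858, 5068 and 8047, met no such limit, and 2955, 3003 and 4782 of them were 1 marker short of one. In GC-like cells the GC regulator *Bcl6* made up 148, 135 and 88 UPM, against 51, 52 and 44 in remaining cells, and *Ighd*, the constant gene of IgD, 216, 170 and 158, against 1084, 1158 and 1261. GC-like cells were also deeper, with a median of 6720, 6986 and 10296 UMIs, against 5171, 4789 and 4934 in remaining cells, and had a mitochondrial share of 2.88%, 3.1% and 3.69%, against 2.09%, 2.32% and 2.66%. The part of both in the stage results was not tested.

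In every stage the inducible pair stood above WT in both *BCL2* libraries, and it was lowest in GC-like cells. *Hspa1a* with *Hspa1b* made up 369 UPM in GC-like cells of 3′RR-*BCL2*, 1100 in those of Igκ-*BCL2* and 11.3 (6 UMIs) in those of WT, where the interval overlaps those of transitional-, marginal zone- and activated-like cells. In transitional-like cells the sum was 650 in 3′RR-*BCL2* cells and 2247 in Igκ-*BCL2* cells, against 22.6 in WT cells, and in marginal zone-like cells 680 and 2012, against 14.4 in WT. Activated-like cells held 934.5 and 2474, against 15.8 in WT. Interferon-like cells were the highest in each library, with 1642 and 3699, against 39.0 in WT, and the remaining cells held 1282 and 3339, against 25.8 in WT. In units of WT this made 32.7-fold (15 to 89.2) in GC-like cells of 3′RR-*BCL2*, 28.8-fold in transitional-like, 47.2-fold in marginal zone-like, 59.3-fold in activated-like, 42.1-fold in interferon-like and 49.7-fold in remaining cells. For Igκ-*BCL2* the same stages gave 97.4-fold, 99.5-fold, 140-fold, 157-fold, 94.9-fold and 129-fold.

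GC-like cells differed from the remaining cells of their own library by −1.80 on the log2 scale in 3′RR-*BCL2* cells (−1.87 to −1.72), −1.60 in Igκ-*BCL2* cells (−1.66 to −1.55) and −1.19 in WT (−2.64 to −0.07) for the summed pair. Fewer of these cells held it too, with 33.2% in 3′RR-*BCL2*, 48.1% in Igκ-*BCL2* and 1.85% in WT, against 60.6%, 81.3% and 3.44% of remaining cells. Of the 10 members, 3 were at least 2-fold lower in GC-like than in remaining cells of 3′RR-*BCL2* (*Hspa1a*, *Hspa1b* and *Hspb1*), where 5.57% of genes measured were, and 2 in Igκ-*BCL2* (*Hspa1a* and *Hspa1b*), where 5.19% were. In WT, where 7 members passed the filter on low counts, 1 of them (*Dnajb1*) was, as were 9.48% of genes. The median log2 ratio over the members measured was −0.46 in 3′RR-*BCL2* cells, −0.36 in Igκ-*BCL2* cells and 0.51 in WT cells, beside 0.04, 0.03 and 0.05 over all genes. These medians cover unlike sets, since the 7 members of WT leave out *Hspa1a*, *Hspa1b* and *Hspb1*, while all 10 entered in the *BCL2* libraries. *Dnajb1* was lower in GC-like cells of each library, at 170 UPM in 3′RR-*BCL2*, 235 in Igκ-*BCL2* and 37.6 in WT, against 316, 416 and 77.6 in remaining cells.

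The other members followed another order in GC-like cells. Summed, the 8 members apart from *Hspa1a* and *Hspa1b* made up 2896 UPM in GC-like cells of 3′RR-*BCL2* and 3274 in those of Igκ-*BCL2*, against 2624 in those of WT, so the ratio to WT was only 1.10 (1.04 to 1.17) and 1.25 (1.18 to 1.32). In remaining cells the sum was 3517 in 3′RR-*BCL2* cells and 3921 in Igκ-*BCL2* cells, against 1657 in WT cells, a ratio of 2.12 and 2.37. The GC-like cells stood 0.66 above the remaining cells on the log2 scale in WT, and at −0.28 and −0.26 in 3′RR-*BCL2* and Igκ-*BCL2*. In the other stages the ratio to WT lay between 1.72 and 2.18 in 3′RR-*BCL2* and between 1.80 and 2.22 in Igκ-*BCL2*.

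*Hspa8*, the constitutive HSC70, shows this most plainly, with 951 UPM in GC-like cells of 3′RR-*BCL2* and 928 in those of Igκ-*BCL2*, against 974 in those of WT, a log2 ratio of −0.04 (−0.17 to 0.10) and −0.07 (−0.21 to 0.07). In remaining cells it made up 1054 and 1023, against 515 in WT. *Hsp90aa1* made up 730 in GC-like cells of 3′RR-*BCL2* and 842 in those of Igκ-*BCL2*, against 717 in those of WT, *Hspe1* 334 and 367, against 389 in WT, and *Hspd1* 138 and 166, against 169 in WT. For these 4 members the ratio of GC-like cells to those of WT lay between 0.814 and 1.175. *Hsph1* did not follow them, with 198 in GC-like cells of 3′RR-*BCL2* and 315 in those of Igκ-*BCL2*, against 71.5 in those of WT, a ratio of 2.77 (2.0 to 3.94) and 4.41 (3.18 to 6.29). The WT value of each gene rests on 54 cells with 531643 UMIs, and the difference between stages in the ratio to WT was not tested. These WT cells also held more of the proliferation marker *Mki67*, at 190 UPM. GC-like cells of 3′RR-*BCL2* held 77.5 UPM of it, those of Igκ-*BCL2* 64.3. The part of *Mki67*-positive cells in the GC-like ratios to WT was not tested.

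**Figure D5:**
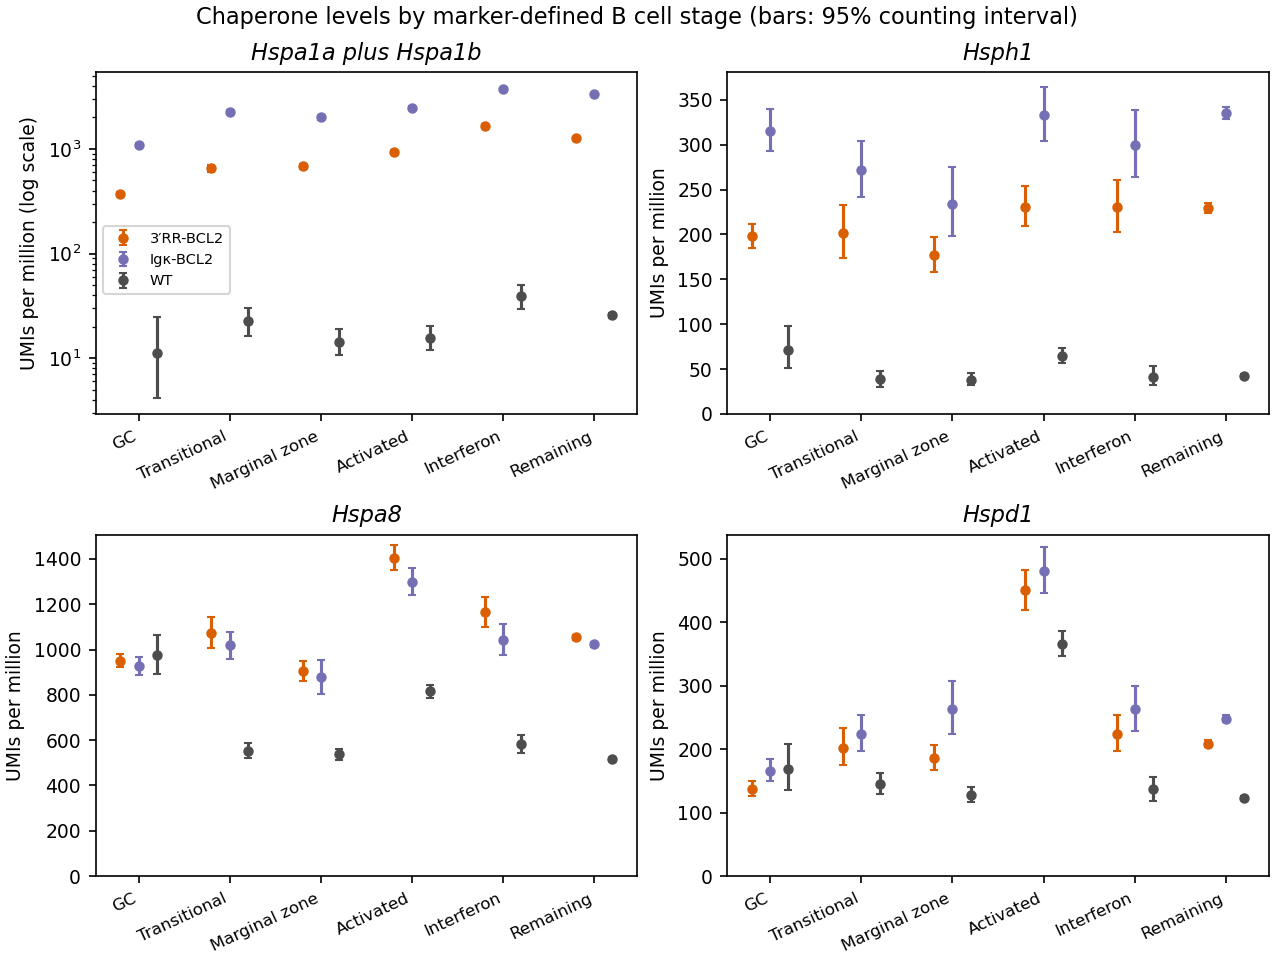
Level in UPM of *Hspa1a* plus *Hspa1b* (log scale), *Hsph1*, *Hspa8* and *Hspd1* in 6 marker-defined stages of 3′RR-*BCL2*, Igκ-*BCL2* and WT, with 95% counting intervals. The pair is lowest in GC cells and highest in Interferon cells, *Hspa8* is at 951, 928 and 974 in GC cells, and *Hspd1* is highest in Activated cells of each library.

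The mitochondrial chaperones were highest in activated-like cells. *Hspd1* made up 450 UPM there in 3′RR-*BCL2* cells and 480.5 in Igκ-*BCL2* cells, against 366 in WT cells, while remaining cells held 208 and 248, against 122.5 in WT. The step between these stages was 1.11 on the log2 scale in 3′RR-*BCL2*, 0.95 in Igκ-*BCL2* and 1.58 in WT. It was 0.42, 0.33 and 0.84 when markers were counted at full depth, which lets more cells into the stage. *Hspe1* made up 612 and 669, against 443 in WT, in activated-like cells, a step of 0.56, 0.55 and 0.70. *Hspa8* made up 1404 and 1299, against 815 in WT, in the same cells. *Dnaja1* had its lowest level in marginal zone-like cells of each library, at 300 in 3′RR-*BCL2* cells and 383 in Igκ-*BCL2* cells, against 150.5 in WT cells.

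Over the 19 combinations of stage and library with at least 50 cells, the genes most like the summed pair by Pearson's r of log2 levels included *Dnajb1* (0.98), *Hsph1* (0.95), *Dnaja1* (0.93) and *Rnaset2a*, which encodes a ribonuclease (0.93), of 10743 genes. *Hsp90aa1* had 0.80, *Hspa8* 0.73, *Hspe1* 0.65 and *Hspd1* 0.49. The combinations share 3 libraries, and the part of the difference between libraries in these values was not tested.

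The same levels were measured in barcodes outside the B cell filter. Barcodes with at least 2 UMIs of *Cd3* genes numbered 15 in 3′RR-*BCL2*, 20 in Igκ-*BCL2* and 19 in WT, and held 681 and 1296 UPM of *Hspa1a* plus *Hspa1b*, against 0 in WT, where 3 UMIs would be 25.9. Their *Cd79a* was at 2094, 1990 and 1595 UPM, against 2960, 3112 and 3266 in B-lineage cells, so B cell RNA was present in these barcodes too. With at least 3 UMIs of *Cd3* genes, 7, 8 and 15 barcodes remained, with 22.8 (1 UMI) in 3′RR-*BCL2*, 766 in Igκ-*BCL2* and 0 in WT. Barcodes with fewer than 800 genes (579, 521 and 902) held 614 and 2014, against 16.9 in WT, and barcodes with over 8% mitochondrial UMIs (256, 147 and 265) held 352 and 667, against 21.5 in WT. In these shallow and high-mitochondrial barcodes the order of the libraries was that of the B-lineage cells that passed, while the 1 UMI in the *Cd3* barcodes of 3′RR-*BCL2* fixes no order against WT.

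Other chaperones and cochaperones differed less between libraries. Of a list of 57 such genes and their regulators, 53 were measured, of which 39 lay above WT in 3′RR-*BCL2* cells and 35 in Igκ-*BCL2* cells, with 1 and 2 at least 2-fold higher and a median log2 ratio of 0.14 and 0.10. Over all genes measured, 39.1% and 53.4% lay above WT and 3.45% and 4.16% were at least 2-fold higher, with medians of −0.06 and 0.02. Among the highest were the HSP40 gene *Dnaja4* (1.06 in 3′RR-*BCL2* cells and 1.38 in Igκ-*BCL2* cells), *Bag3*, an exchange factor that links HSP70 to autophagy (0.84 and 1.33), *Hspa2*, an HSP70 known from male germ cells (0.89 and 0.41), *Ahsa1*, an activator of HSP90 (0.52 and 0.71), and the HSP40 gene *Dnajb4* (0.57 and 0.66). By the mean of both libraries the lowest were *Hspb11*, which works in cilia despite its name (−0.22 and −0.40), *Fkbp5*, a cochaperone of HSP90 (−0.30 and −0.19), and *Hsf1* itself (−0.23 and −0.04). In Igκ-*BCL2* the interval of *Hsf1* (−0.13 to 0.04) gives no direction, and other listed genes were lower there. *Hsf2* had 0.00 and 0.32, and *Hsbp1*, which binds HSF1, had −0.08 and −0.15. Of the 48 listed genes with a promoter window, 2 (*Chordc1* and *Dnajb6*) held a run of 3 units.

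Lists of other stress responses were set beside the members. Their yardstick is the whole set of genes measured, with 3′RR-*BCL2* given first and Igκ-*BCL2* second. Of that set, 39.1% and 53.4% exceeded WT, and 3.45% and 4.16% did so by 2-fold or more. Of 18 immediate early genes measured, which cells switch on within minutes of a stimulus, 17 lay above WT in 3′RR-*BCL2* cells and 17 in Igκ-*BCL2* cells, with 0 and 1 at least 2-fold higher and medians of 0.41 and 0.34. The highest was *Atf3* (0.87 and 1.24) and the lowest *Egr3* (−0.09 and −0.37). Their part in the chaperone result was not tested. Of 16 genes of the unfolded protein response of the endoplasmic reticulum, 15 and 14 lay above WT, with 0 at least 2-fold higher in either and medians of 0.17 and 0.11. By the mean of both libraries *Hspa5* was the highest (0.46 and 0.23), while in Igκ-*BCL2* alone *Dnajb9* was (0.33). *Pdia4*, a disulfide isomerase, was the lowest (0.00 and −0.48). Of 10 genes measured of the integrated stress response, 8 and 9 lay above WT and 2 and 3 were at least 2-fold higher, with medians of 0.39 and 0.32. Its highest gene by the mean of both libraries, *Asns*, which makes asparagine (1.93 and 1.82), had 77, 61 and 29 UMIs in 3′RR-*BCL2*, Igκ-*BCL2* and WT. In Igκ-*BCL2* alone *Trib3* was higher (2.31). The lowest was *Phgdh*, of serine synthesis (−0.15 and −0.24).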

How the data were processed

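The authors deposited UMI counts per gene and cell barcode for each library, made from 10x 3′ libraries. The submitters' processing notes name Cell Ranger 6.1.1 and the builds mm10 and hg38. The counting mode for strand is not given in the sources used here. A barcode passed the filter of the study with 800 to 4500 genes, up to 20000 UMIs, up to 8% of them mitochondrial and 10% or more from ribosomal protein genes. Those with 2 or more UMIs of *Cd3*, or of *C1q*, were removed, a limit not given in the study. The deposited libraries held 7579 (3′RR-*BCL2*), 7034 (Igκ-*BCL2*) and 11269 (WT) barcodes with 45539172, 37433924 and 62777659 UMIs. No doublet caller was run. UMIs were summed over cells and scaled to a total of 1000000 (UPM), and genes with at least 20 UMIs in either library were measured. Python 3.11.15 was used for sums, ratios and thinning (seed 1), with pandas 2.3.3, scipy 1.17.1, numpy 2.4.6 and, for figures, matplotlib 3.10.9. No test was made, since each genotype had 1 library. The intervals were tested on simulated Poisson counts, without the spread between cells seen here, so that test covers counting error alone. Stages with fewer than 50 cells in a library are not described. Gene positions are from GENCODE M21 (GRCm38), in which 32158 of 32285 identifiers were found. The members and all lists were chosen with earlier results of these data known, and the number of markers that defines a stage was set after the data were seen. Named outside the members are the 6 highest and 3 lowest chaperone network genes by mean log2 ratio of both *BCL2* libraries, the HSF genes, the highest and lowest gene of each other list, and the 5 genes most like the *Hspa1a* and *Hspa1b* sum over cells and over stages. A gene that this rule also names is not reported here. *Actb*, *Jun*, *Fos* and *Mki67* were added after their values were seen. Alternatives were other cell filters, totals, cell weights, minimums, thinning depths and marker limits.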

Additional observations from a re-analysis of the deposited data

How the results depend on the processing

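No paired analysis was possible because each genotype had 1 library, and for the same reason no replicate could be left out. None of the 150 alternative values of single member ratios changed direction. The 22 alternative stage ratios of the summed pair to WT that could be computed lay between 4.23 and 7.99 on the log2 scale. Those with no UMI of the pair on a side were left out. Sizes were less stable, judged by limits such as the counting interval of the main value. Of the alternatives for the main results 29 moved beyond these limits and 38 did not, and of all others 73 and 108. The median log2 ratio of the members to WT in 3′RR-*BCL2* (1.52) was 1.47 with a looser cell filter and 1.47 with all barcodes, 1.12 with *Hspa1a* and *Hspa1b* summed and 1.60 in remaining cells alone. In Igκ-*BCL2* (1.89) it was 1.94 with each cell weighted equally and 1.40 with the pair summed. Igκ-*BCL2* was at least 2-fold above 3′RR-*BCL2* for 1 member with the pair summed. The share of cells with the pair depended on depth. In 3′RR-*BCL2* (56.1%) it was 42.7% at 1000 UMIs, 64.8% at 4000, 68.9% without thinning, 54.3% with the looser filter and 60.6% in remaining cells. In Igκ-*BCL2* (78.6%) it was 70.1%, 83.6% and 87.8% at these depths and 81.3% in remaining cells. In WT (3.30%) it was 2.19%, 5.03% and 6.85%. With 1 more marker per stage, the log2 ratio of the pair in GC-like over remaining cells was −2.07 in 3′RR-*BCL2* cells and −1.89 in Igκ-*BCL2* cells, and −1.65 and −1.27 with markers counted at full depth. For *Hspd1* in activated-like over remaining cells these limits gave 1.58 and 0.42 in 3′RR-*BCL2* cells, 1.27 and 0.33 in Igκ-*BCL2* cells and 1.96 and 0.84 in WT cells. The cause of these shifts was not tested, other than that a shallower cell can show fewer UMIs. Sex, library, cell preparation and mouse cannot be told apart from genotype for the 3′RR-*BCL2* library, nor library, preparation and mouse for Igκ-*BCL2*.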

Other observations

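Barcodes of plasma cells were too few for a stage of their own. With UMIs of at least 5 of 13 plasma cell markers and under any filter, a limit chosen after the data were seen, there were 39 barcodes in 3′RR-*BCL2*, 29 in Igκ-*BCL2* and 12 in WT. Their *Hspa1a* plus *Hspa1b* level was 98.9 UPM in 3′RR-*BCL2* cells and 740 in Igκ-*BCL2* cells, against 0 in WT cells, where 3 UMIs would be 14.4, and the other 8 members summed to 2593 and 2017, against 1294 in WT. Barcodes with over 4500 genes or 20000 UMIs (129, 51 and 108) held 379 and 614 UPM of the pair, against 17.1 in WT, and 3978 and 4316 of the other 8 members, against 3973 in WT, so that in these the other 8 summed to nearly the same level in 3′RR-*BCL2* as in WT. In 3′RR-*BCL2*, 101 dividing-like cells, with UMIs of at least 3 of 12 proliferation markers, held 371 UPM of the pair and 3341 of the other 8 members, beside 369 and 2896 in GC-like cells of that library. Of these 101 cells, 77 also held at least 2 GC markers.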
